A study of Mus musculus with 3 samples.

Results

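The internal granule cell layer (GCL-I) of the mouse main olfactory bulb was read here as a set of array spots: those to which the authors' deposited annotation gives that region name. It held 204371 of the 2250425 spots under tissue, with 89456, 56040 and 58875 spots in sections 1, 2 and 3. Granule cells are axonless inhibitory interneurons that use GABA. Their somata lie packed in this layer, and their apical dendrites reach the external plexiform layer, where they form reciprocal dendrodendritic synapses with the lateral dendrites of mitral and tufted cells, the glutamatergic output neurons of the bulb. New granule cells reach the layer throughout life by way of the rostral migratory stream.

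High-density arrays captured poly(A) RNA from 3 coronal sections of strain C57BL/6J at 12 weeks of age, and all values come from these 3 samples, with no treatment or genotype compared. The groups compared are therefore regions within a section: GCL-I, set against the olfactory nerve layer (ONL), glomerular layer (GL), external plexiform layer (EPL), mitral layer (M/T), internal plexiform layer (IPL), external granule cell layer (GCL-E), ependymal cell zone (E) and rostral migratory system (RMS). The labels do not say whether the sections came from separate animals, so p-values speak only for these sections. Those of the gene tests measure how far differences between regions vary from section to section, after the level of each section is removed. That spread is pooled over the regions of a fit. The sources used here do not state how the regions were outlined, nor whether expression guided this. A spot is a small area that can hold parts of several cells, and in sums over spots fewer cells of a type and less RNA per cell cannot be told apart.

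GCL-I gave 51391, 60619 and 46947 counts in sections 1, 2 and 3, which were 14.9%, 9.40% and 9.35% of the counts of those sections on 10.2%, 8.35% and 8.49% of their spots. Section 1 stood apart: it was the shallowest library, with 344260 counts against 650393 and 505305 in sections 2 and 3, and several genes below had levels there far from those of the other sections. Per 100 spots GCL-I gave 57.4, 108 and 79.7 counts, the highest of the 9 regions in section 1 and the fourth highest in the others. The mean log2 ratio to the mean of the other 8 regions was 0.23 ± 0.19 (SD, n = 3), which did not pass a two-sided exact permutation test of region labels within sections (p = 0.320, smallest possible 0.00137). Most spots held no count: 16.2%, 22.9% and 21.7% of GCL-I spots had any, with 3.54, 4.72 and 3.67 counts per such spot. The layer was a thin band, with a median width of 27.7, 21.4 and 22.1 array positions, bordered by GCL-E on its outer side and by E on its deep side.

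The label of the layer was set beside 4 marker genes, which were chosen with earlier results of these data known and did not pass the test between GCL-I and GCL-E. Gad1, which encodes the GABA-synthesising enzyme GAD67, was at 3892, 2738 and 2599 CPM (counts of a gene scaled to a common total in each section and region) in GCL-I, against 2307, 1741 and 1546 CPM as the mean of the other regions. Pcp4, which encodes a small calmodulin-binding protein, was at 2316, 1600 and 1534 CPM in GCL-I and at 1317, 888 and 737 CPM in the other regions. Each section had more of both genes in GCL-I, and the values of the groups did not overlap. In the fit over all genes Gad1 was higher by a log2 fold change of 0.76 (SE 0.13, adjusted p = 2.89e-06, edgeR) and Pcp4 by 0.96 (SE 0.14, adjusted p = 4.80e-08). Ptk2b, which encodes the calcium-activated tyrosine kinase Pyk2, was at 506, 396 and 490 CPM in GCL-I against 312, 150 and 172 CPM elsewhere (log2 fold change 1.28, SE 0.25, adjusted p = 0.000132). Icam5, the dendritic adhesion molecule telencephalin, was at 623, 363 and 596 CPM in GCL-I against 365, 209 and 183 CPM elsewhere (log2 fold change 1.22, SE 0.24, adjusted p = 0.000149). The groups did not overlap for Ptk2b, and for Icam5 they overlapped narrowly. In the fit without section 2 Ptk2b had an adjusted p of 0.0620, and in that without section 3 Icam5 had 0.0671, while Gad1 and Pcp4 passed with each section left out.

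Counting error was small for the leading markers and large for the rest. The 200, 166 and 122 Gad1 counts of GCL-I gave 95% Wilson intervals of 3389 to 4468, 2353 to 3187 and 2177 to 3102 CPM, and the 24 Ptk2b counts of section 2 gave 266 to 589 CPM. These intervals cover counting error only.

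The markers were also found outside the layer. By mean over sections, Gad1 was highest in GCL-I at 3076 ± 710 CPM, then in GCL-E at 2779 ± 269 CPM and in IPL at 2758 ± 1208 CPM, and these neighbours in the order overlapped in their spread (SD, n = 3). In single sections another region led: IPL in section 1, and GCL-E in sections 2 and 3. E followed with 1897 ± 363 CPM, and EPL and RMS were lowest with 1358 ± 542 and 1131 ± 385 CPM. Pcp4 was also highest in GCL-I and then GCL-E, at 1816 ± 434 and 1455 ± 408 CPM, but was followed by E at 1375 ± 310 CPM. Ptk2b was near-equal in GCL-I and GCL-E, at 464 ± 59.4 and 447 ± 112 CPM, and was between 93.7 and 184 CPM in the 5 regions outside the granule cell layers.

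**Figure D1:**
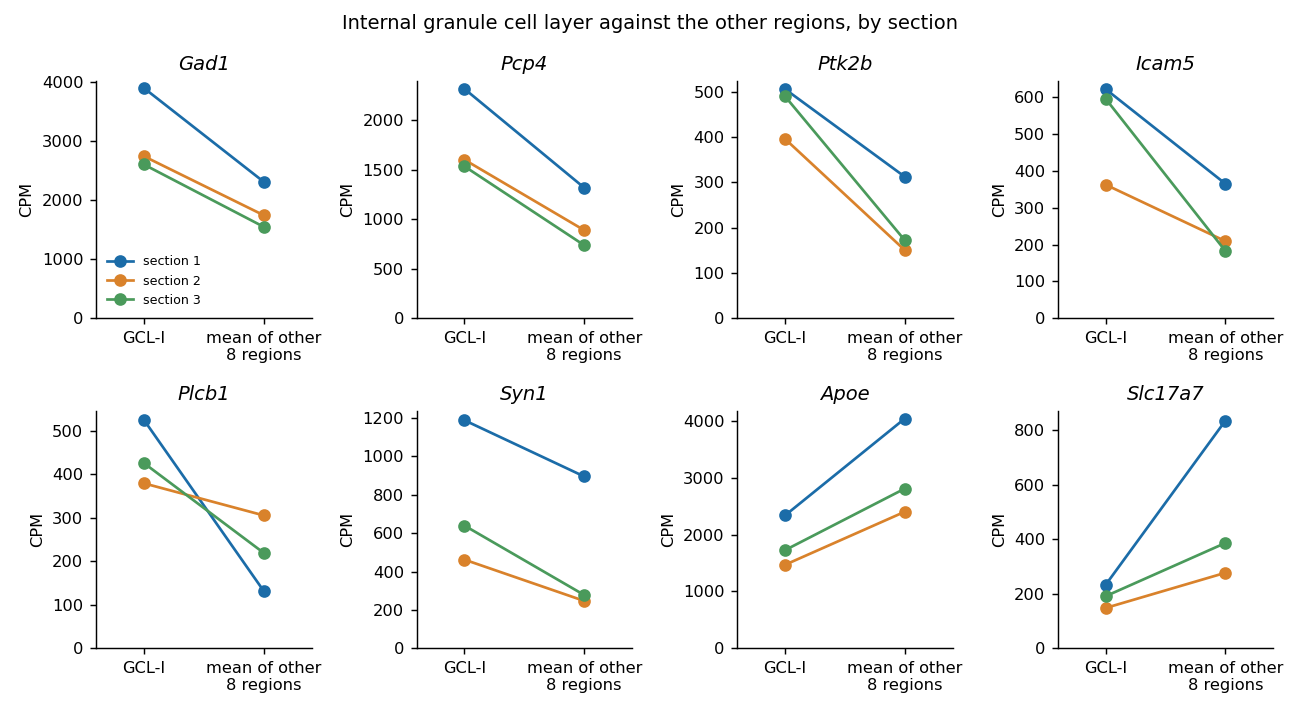
CPM of 8 genes in GCL-I (left) and as the mean of the other 8 regions (right), with 1 line per section. Gad1, Pcp4, Ptk2b, Icam5, Plcb1 and Syn1 lie higher in GCL-I in each section, and Apoe and Slc17a7 lie lower.

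The promoters of 3 genes are shown because these genes were higher in the layer and play different roles there: Pcp4 and Gad1, its leading markers, and Syn1, a synaptic vesicle gene. Each is the 250 bases before the start of the gene in RefSeq's annotation of GRCm38.p6, written 5′ to 3′ on the strand of the gene: Pcp4 at chr16:96467356-96467605 (plus strand), Gad1 at chr2:70561879-70562128 (plus strand) and Syn1 at chrX:20920919-20921168 (minus strand). Capitals mark matches on either strand to 3 motifs: TGACGTCA, the cyclic AMP response element, TTCAGCACC, the core of the element bound by the neuronal repressor REST, and GGGCGG, the GC box. None of the motifs overlaps another in these windows.
Pcp4: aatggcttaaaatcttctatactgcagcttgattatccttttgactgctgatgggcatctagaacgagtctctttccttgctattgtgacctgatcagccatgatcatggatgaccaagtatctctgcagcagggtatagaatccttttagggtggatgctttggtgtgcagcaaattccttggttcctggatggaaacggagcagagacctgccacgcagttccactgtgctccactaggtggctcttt
Gad1: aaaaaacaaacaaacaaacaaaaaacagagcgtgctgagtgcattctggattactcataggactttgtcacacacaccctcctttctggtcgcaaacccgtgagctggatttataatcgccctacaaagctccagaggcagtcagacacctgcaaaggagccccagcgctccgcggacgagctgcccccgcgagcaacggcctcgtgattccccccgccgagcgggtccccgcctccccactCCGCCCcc
Syn1: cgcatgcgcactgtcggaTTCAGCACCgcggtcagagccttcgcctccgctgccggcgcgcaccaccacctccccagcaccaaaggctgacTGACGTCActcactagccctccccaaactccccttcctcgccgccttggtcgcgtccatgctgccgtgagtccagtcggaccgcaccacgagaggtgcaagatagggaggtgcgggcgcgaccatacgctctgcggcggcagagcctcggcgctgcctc
None of the 3 motifs was found in the Pcp4 window. The Gad1 window holds a GC box 8 bases before the start, on the minus strand of the gene, and the Syn1 window holds a cyclic AMP response element 159 bases and a REST core 232 bases before it. Of the 42 genes higher in GCL-I that matched the table, 54.8% held GGGCGG, against 66.8% of the 1509 tested genes in the table and 35.4% of its 27025 genes. TGACGTCA was in 2.38% of the higher genes and in 4.57% of those 1509 tested genes, and TTCAGCACC in 2.38% and 0.596%. Each 2.38% is 1 gene of 42, and for both motifs that gene is Syn1, shown above. A match describes the sequence alone.

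Against the mean of the other 8 regions, GCL-I differed in 71 of 1996 genes tested, which is 3.56% (edgeR quasi-likelihood test, adjusted p under 0.05). The fold changes of this comparison use the unweighted mean of the 8 regions on the log scale. The CPM given for the other regions are arithmetic means, so the log2 ratio of the printed CPM can differ from the fold change. Of these 53 were higher in GCL-I (2.66% of the genes tested) and 18 were lower (0.902%). With RLE in place of TMM scaling 47 were higher and 30 lower. The log2 fold changes of the higher genes reached 1.81 and those of the lower genes -2.22, beside a median of 0.10 over all tested genes. GCL-I had the highest mean level of the 9 regions for 34 of the 53 higher genes, followed by GCL-E for 9 and RMS for 4. RMS held only 16285, 5162 and 1456 counts in sections 1, 2 and 3, so its CPM can rest on very few counts of a gene. The number of calls rested on sections 2 and 3: leaving out section 1 gave 74, section 2 gave 8 and section 3 gave 19, and with no section block it was 0 (edgeR, 117 at unadjusted p under 0.05). Of the 53 higher genes 39 were still called without section 1, 7 without section 2 and 14 without section 3, and of the 18 lower genes 9, 1 and 4. Of the 71 genes, Gad1, Pcp4 and Rbfox3 alone were called with each section left out.

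The higher genes included members of the list of granule cell and bulb interneuron markers, which was chosen with earlier results of these data known. The summed level of this list was 9382 ± 956 CPM in GCL-I, 8440 ± 745 CPM in GCL-E and 8230 ± 135 CPM in E (mean ± SD, n = 3). Against GCL-E and against E, 0 of its 13 tested genes were called, as were 0 of all 1996 tested genes. Over all tested genes 2.66% rose and 0.902% fell, which is the background for each list set against the other regions. Of the 13 tested genes of the marker list 8 rose and 0 fell, with a median log2 fold change of 0.67 against 0.10 for all tested genes. Beside Pcp4, Ptk2b and Icam5 these were Nrxn3, a presynaptic adhesion gene, Prkca, protein kinase C alpha, Synpr, which encodes the vesicle protein synaptoporin, Gng4, a G protein gamma subunit, and Cpne4, which encodes a calcium-dependent phospholipid-binding copine. Prkca was at 856, 957 and 767 CPM in GCL-I and at 584, 524 and 589 CPM in the other regions, with no overlap (log2 fold change 0.72, SE 0.18, adjusted p = 0.00599). Nrxn3 was at 545, 1023 and 959 CPM in GCL-I and at 368, 575 and 493 CPM elsewhere (log2 fold change 0.89, SE 0.19, adjusted p = 0.00108). Nrxn3 overlapped between the groups because its level in section 1 was low in both. Gng4 and Cpne4 were higher in GCL-I in 2 of 3 sections: Gng4 was lower there in section 3 and Cpne4 in section 1. Without section 2, Prkca, Nrxn3, Synpr, Gng4 and Cpne4 had adjusted p between 0.132 and 0.750.

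Of 7 genes for GABA synthesis, packaging and uptake, Gad1 alone passed. Gad2, which encodes GAD65, was at 467, 709 and 831 CPM in GCL-I and at 428, 601 and 511 CPM elsewhere (log2 fold change 0.46, adjusted p = 0.195). Slc6a11, which encodes the astrocytic GABA transporter GAT3, was at 584, 577 and 852 CPM in GCL-I and at 877, 717 and 903 CPM elsewhere (log2 fold change -0.24, adjusted p = 0.563). Among 15 transcription factors of bulb interneurons Meis2, a homeobox gene of striatal and bulb interneurons, rose, at 370, 1683 and 1555 CPM in GCL-I against 333, 935 and 995 CPM elsewhere (log2 fold change 0.74, SE 0.16, adjusted p = 0.00180). The Meis2 level in section 1 was the lowest in both groups, and the difference there was small. Meis2 had an adjusted p of 0.403 without section 2 and of 0.0769 without section 3.

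Of 25 tested genes for calmodulin, calcium-dependent kinases and phosphatases 5 rose and 0 fell. Their median log2 fold change was 0.41, against 0.10 for all tested genes, of which 2.66% rose. The summed level of the list was 17638 ± 644 CPM in GCL-I and 17711 ± 1393 CPM in E (mean ± SD, n = 3). The 5 genes that rose were Pcp4, Ptk2b and Prkca, described above, and Camk2b and Camk2n1. The last 2 encode a subunit and an inhibitor of calcium/calmodulin-dependent kinase II. Camk2b was at 642, 808 and 1022 CPM in GCL-I against 541, 575 and 494 CPM elsewhere, and Camk2n1 at 1031, 1221 and 1108 CPM against 571, 762 and 805 CPM. Neither overlapped between the groups (log2 fold changes 0.68 and 0.66, adjusted p = 0.0149 and 0.00599). Calm2, a calmodulin gene, had a log2 fold change of 0.32 (adjusted p = 0.179).

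Upstream of these enzymes, Plcb1, the phospholipase C through which Gq-coupled receptors release calcium and diacylglycerol, was at 525, 379 and 426 CPM in GCL-I. In the other regions it was at 132, 306 and 220 CPM, with no overlap (log2 fold change 1.0, SE 0.24, adjusted p = 0.00521). Without section 1 its adjusted p was 0.245. Dgkb, a diacylglycerol kinase that ends the lipid signal, was at 19.5, 478 and 319.5 CPM in GCL-I against 14, 240 and 189 CPM elsewhere (log2 fold change 1.34, SE 0.42, adjusted p = 0.0438). It was nearly undetected in section 1, where GCL-I held 1 count. Rasgrf2, a calcium-regulated activator of Ras, rose by 1.11 (adjusted p = 0.0403). So did Map2k1, the kinase MEK1 downstream of Ras, which was named after its values were seen, by 0.67 on the log2 scale (adjusted p = 0.0478). For Dgkb, Rasgrf2, Map2k1, Camk2b and Camk2n1 the fit that leaves out section 2 gave adjusted p between 0.146 and 0.623.

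Membrane excitability genes included several potassium channel subunits. Among 20 tested channel genes Kcnj4 and Cacna1e rose and Kcna2 fell, with a median log2 fold change of 0.30. The summed level of the list was 5925 ± 606 CPM in GCL-I and 6433 ± 254 CPM in M/T (mean ± SD, n = 3). Kcnj4, the inward rectifier Kir2.3, was at 506, 330 and 298 CPM in GCL-I against 411, 99.4 and 141 CPM elsewhere (log2 fold change 0.95, adjusted p = 0.0189). Cacna1e, which encodes the pore of R-type calcium channels, was at 311, 379 and 362 CPM in GCL-I and at 200, 187 and 215 CPM elsewhere, with no overlap (log2 fold change 0.84, adjusted p = 0.0478). Outside the list, Kcnf1, an electrically silent Kv subunit, Dpp10, an auxiliary subunit of A-type Kv4 channels, and Ano3, of the anoctamin family, rose by 1.05, 1.04 and 1.09. Kcna2, the axonal delayed rectifier Kv1.2, was at 19.5, 16.5 and 170 CPM in GCL-I against 112, 327 and 227 CPM elsewhere (log2 fold change -1.69, SE 0.44, adjusted p = 0.00922). It was low in GCL-I in sections 1 and 2, and section 3 overlapped with the other regions. Without section 2 the adjusted p of Kcnj4, Cacna1e, Kcnf1, Dpp10 and Kcna2 lay between 0.146 and 0.737, and Ano3 was not tested.

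At the excitatory synapse, 2 of 13 tested glutamate receptor genes rose and 0 fell. Grin1, the obligatory NMDA receptor subunit, was at 895, 462 and 511 CPM in GCL-I against 664, 257 and 250 CPM elsewhere (log2 fold change 0.78, SE 0.21, adjusted p = 0.0135). Gria3, an AMPA receptor subunit, was at 525, 478 and 405 CPM in GCL-I and at 344, 217 and 269 CPM elsewhere, with no overlap (log2 fold change 0.87, SE 0.23, adjusted p = 0.0127). Gria2 and Grin2b, the receptor genes with many counts that did not pass, had log2 fold changes of 0.16 and 0.44. Of 16 tested postsynaptic scaffold genes Icam5 was the one called. The summed level of the receptor list was 5174 ± 574 CPM in GCL-I and 5349 ± 454 CPM in GCL-E (mean ± SD, n = 3). That of the scaffold list was 7865 ± 1262 and 8345 ± 1527 CPM. Abl2, which encodes the actin-regulating kinase Arg, and Wipf3, of the WASP-interacting protein family, rose by 1.14 and 1.13 (adjusted p = 0.00428 and 0.0149). Leaving out section 2 gave an adjusted p of 0.327 for Grin1 and Gria3 and 0.142 for Wipf3, and without section 3 that of Abl2 was 0.429.

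At the presynaptic side, 4 of 23 tested vesicle and release genes rose and 0 fell, with a median log2 fold change of 0.33. By mean ± SD over the sections, the summed level of the list was 16756 ± 3320 CPM in GCL-I. It was higher in M/T, at 19494 ± 3196 CPM, and in GCL-E, at 17287 ± 4358 CPM, and lower in the other regions. The spreads of GCL-I, M/T and GCL-E overlapped. Syn1 and Syn2 encode synapsins, which tether vesicles, Vamp2 the vesicle SNARE, and Napb a SNAP protein that recycles SNARE complexes. Napb was at 895, 1287 and 1129 CPM in GCL-I and at 632, 735 and 648 CPM elsewhere, with no overlap (log2 fold change 0.72, SE 0.17, adjusted p = 0.00236). Syn1 was at 1187, 462 and 639 CPM in GCL-I and at 895, 247 and 278 CPM elsewhere (log2 fold change 0.71, SE 0.19, adjusted p = 0.0142). Syn1 was highest in section 1 in both groups, so the groups overlapped although each section was higher in GCL-I. Snap25, the vesicle gene with the most counts, had a log2 fold change of 0.30 (adjusted p = 0.182). Egr1, an activity-regulated transcription factor, was the 1 gene of 4 tested immediate early genes that rose, at 1420, 495 and 639 CPM in GCL-I against 929, 346 and 274 CPM elsewhere (log2 fold change 0.83, SE 0.19, adjusted p = 0.00206). Fos and Nr4a1, of the same list, had log2 fold changes of 1.17 and 0.93 (adjusted p = 0.0666 and 0.104). Without section 2 the adjusted p of Napb, Syn1, Syn2, Vamp2 and Egr1 lay between 0.0659 and 0.390.

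The remaining genes named by size of change were Emsy, a transcriptional regulator, with a log2 fold change of 1.81 (SE 0.50, adjusted p = 0.0149), Ctxn1, the neuronal membrane protein cortexin, with 1.12, R3hdm4 with 1.15 and Cuedc2 with 1.07. Emsy rested on 31 counts in GCL-I. Rbfox3, the splicing factor known as the neuronal marker NeuN, was named from the comparison with EPL and was higher in GCL-I in 2 of 3 sections, at 778, 462 and 256 CPM against 232, 178 and 272 CPM elsewhere (log2 fold change 1.43, SE 0.24, adjusted p = 2.89e-06). Its mean level was also high in RMS and E, at 601 and 378 CPM. The 53 higher genes were all protein-coding in the GENCODE annotation of mm10, with a median span of 67.9 kb, against 13 kb for the 18 lower genes and 29.0 kb for all tested genes. The 18 lower genes were 14 protein-coding genes and 4 pseudogenes, and their median span includes the pseudogenes. With section 2 left out R3hdm4 and Cuedc2 had adjusted p of 0.391 and 0.143, Emsy was tested in the fit without section 1 alone, and Ctxn1 had 0.262 without section 3.

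**Figure D2:**
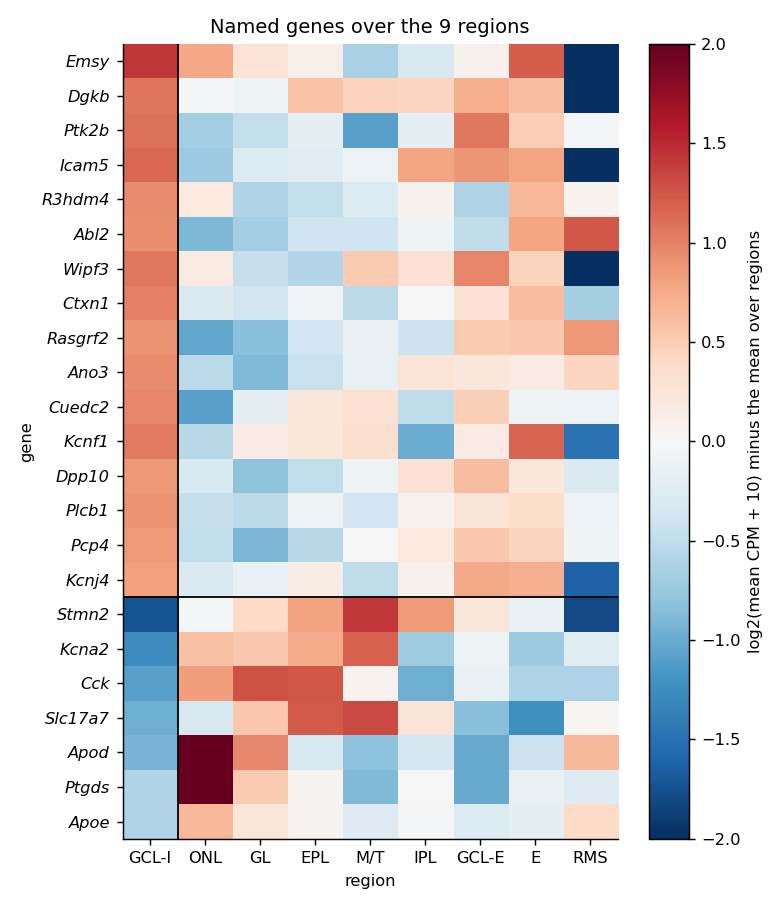
Mean level of the genes named against the other regions (rows, 16 higher above the line and 7 lower below it) in the 9 regions (columns, GCL-I first), as log2 of mean CPM plus 10, minus the mean over regions, with colours that stop at 2 in either direction. The higher genes are red in GCL-I and, for many, also in GCL-E and E, and the lower genes are blue in GCL-I.

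The 18 genes lower in GCL-I included mitral and tufted cell genes, glial genes and 4 that share sequence with mitochondrial transcripts. By mean level 6 of them were highest in EPL, 5 in ONL, 4 in M/T, 2 in RMS and 1 in GL. Slc17a7, the vesicular glutamate transporter of mitral and tufted cells, was at 234, 148 and 192 CPM in GCL-I, against 836, 278 and 387 CPM in the other regions, with no overlap (log2 fold change -1.09, SE 0.29, adjusted p = 0.0133). Cck, the cholecystokinin gene of tufted cells, was at 156, 33.0 and 128 CPM in GCL-I against 481, 231 and 211 CPM elsewhere (log2 fold change -1.22, SE 0.38, adjusted p = 0.0438). Both belong to the list of mitral and tufted cells, in which 2 of 11 tested genes fell and 0 rose. Stmn2, a microtubule regulator of growing axons, had 0, 4 and 0 counts in GCL-I. The 0 in sections 1 and 3 allowed up to 58.4 and 63.9 CPM (3 counts), and the other regions averaged 130, 110 and 164 CPM (log2 fold change -2.22, adjusted p = 0.0330). Without section 1 the adjusted p was 0.547 for Slc17a7, 0.103 for Cck and 0.998 for Stmn2, and with border spots removed Cck had a log2 fold change of 0.20, beside a median of 0.66 over all genes.

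Several glial genes were lower in GCL-I. Apoe, the lipoprotein of astrocytes, was at 2335, 1468 and 1725 CPM in GCL-I against 4036, 2400 and 2806 CPM elsewhere (log2 fold change -0.69, SE 0.15, adjusted p = 0.000912). Apoe and Slc1a3, the glutamate transporter GLAST, were among the 3 of 18 tested astrocyte genes that fell, and 0 rose. The outer-layer genes Apod, of ensheathing glia, and Ptgds, of meninges and oligodendrocytes, fell by 1.01 and 0.75 on the log2 scale. Without section 2 the adjusted p of Apoe, Slc1a3, Apod and Ptgds lay between 0.132 and 0.559. When GCL-I and the other regions were cut back by 5 array positions at their borders, the median log2 fold change of all genes was 0.66, and Slc1a3 and Apod had 0.61 and 0.08 in place of their negative values.

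Of 9 tested genes of myelinating oligodendrocytes 0 rose and 1 fell. Mbp, myelin basic protein, was at 2004, 1089 and 1129 CPM in GCL-I against 2465, 1159 and 1712 CPM elsewhere (log2 fold change -0.06, adjusted p = 0.922). Cst3, a microglial and astrocytic protease inhibitor, was at 2530, 1468 and 1491 CPM in GCL-I against 3800, 2505 and 2531 CPM elsewhere (log2 fold change -0.59, SE 0.15, adjusted p = 0.00591; 0.454 without section 2). The neuroblast list had 0 of 10 tested genes higher and Stmn2 lower, and Dcx, doublecortin, had a log2 fold change of 0.61 (adjusted p = 0.190). Ribosomal protein genes (0 of 74 called) and nuclear-encoded respiratory chain genes (1 of 69, Cox5b, higher) had medians of 0.04 and 0.15. None of the ependymal markers had enough counts to be tested: the list held 6, 1 and 4 counts in GCL-I. A further 4 of the lower genes, Gm13340, Gm10925, Gm28661 and Gm28437, share sequence with mitochondrial transcripts. The 11 such genes took 1.33%, 3.41% and 3.80% of GCL-I counts, against a mean of 1.90%, 5.43% and 5.6% in the other regions. Without these 11 genes 64 genes were called, 44 higher and 20 lower. Lars2, also lower, was not among the 11. It was at 0, 9584 and 9053 CPM in GCL-I against 55.6, 16749 and 13396 CPM elsewhere (log2 fold change -0.57, adjusted p = 0.0322, edgeR), so section 1 held almost none.

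Set against EPL, the layer of granule cell dendrites, GCL-I holds the somata of neurons whose processes run there. The 2 regions differed in 287 genes (14.4% of 1996; edgeR, adjusted p under 0.05), of which 118 were higher in GCL-I (5.91%) and 169 lower (8.47%). With library sizes alone as scaling, the median log2 fold change of all genes was 0.20 in place of 0.01, and the split became 220 higher and 129 lower. Leaving out sections 1, 2 and 3 in turn gave 280, 105 and 132 calls, and leaving out the section block gave 2. With each section left out, 11 of the 118 higher and 57 of the 169 lower genes were still called. Because this comparison and the one with all other regions share the GCL-I sums, the overlap of their calls is no separate support: 43 higher genes were in both (81.1% of 53 and 36.4% of 118), and 16 lower genes (88.9% of 18 and 9.47% of 169).

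**Figure D3:**
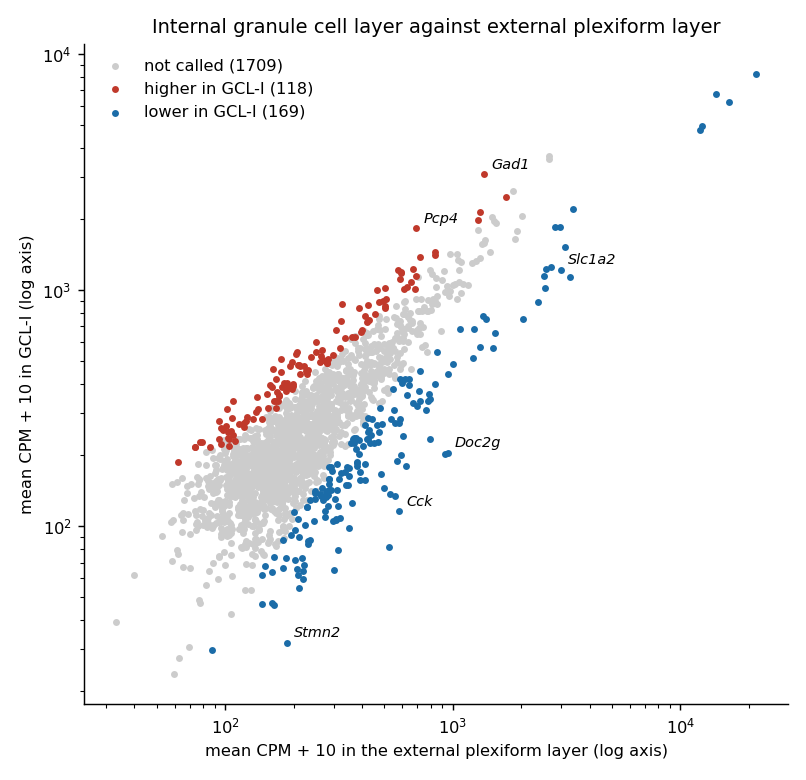
Mean CPM plus 10 over the 3 sections in GCL-I (vertical, log axis) against EPL (horizontal, log axis) for the 1996 genes tested, with the 118 genes higher in GCL-I in red, the 169 lower in blue and the others in grey. Gad1 and Pcp4 lie above the bulk of genes, and Cck, Doc2g, Stmn2 and Slc1a2 below it.

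The marker genes of the layer were higher in it than in EPL. Gad1 was at 3892, 2738 and 2599 CPM in GCL-I and at 1926, 1303 and 846 CPM in EPL (log2 fold change 1.06, SE 0.16, adjusted p = 7.48e-09). Pcp4 was at 2316, 1600 and 1534 CPM in GCL-I and at 1156, 438 and 447 CPM in EPL (log2 fold change 1.38, SE 0.18, adjusted p = 5.25e-12). Neither overlapped, and of 13 tested granule cell and interneuron markers 10 rose and 1, Nrsn1, fell, with a median log2 fold change of 0.94 against 0.01 for all genes. Prkca rose by 1.33, Ptk2b by 1.32 and Icam5 by 1.35, and without section 3 the adjusted p of Icam5 was 0.0568. In each section the regions inside EPL formed 2 connected pieces, and each EPL spot was assigned to the nearer piece. The pieces divide the counts already used in the test, so their agreement for called genes is no separate support. The share of all tested genes that were higher in each piece was not computed. Gad1, Pcp4, Ptk2b, Icam5, Prkca, Plcb1 and Camk2b were higher in GCL-I than in EPL in 6 of 6 pieces, Meis2, Kcnj4, Rasgrf2, R3hdm4, Dpp10 and Emsy in 5, Abl2 and Nrxn3 in 4, and Dgkb in 3.

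The genes named here by size were Gm13889, Wipf3, Rbfox3 and Lgr6 on the higher side. Gm13889, an annotated gene of unassigned function, was at 525, 132 and 256 CPM in GCL-I against 165, 54.7 and 55.9 CPM in EPL (log2 fold change 1.59, SE 0.38, adjusted p = 0.000621). Wipf3 was at 331, 247 and 405 CPM in GCL-I and at 138, 93.0 and 63.8 CPM in EPL, with no overlap (log2 fold change 1.56, SE 0.36, adjusted p = 0.000333). Lgr6, a receptor of R-spondins, was at 214, 214 and 192 CPM in GCL-I and at 82.5, 76.6 and 31.9 CPM in EPL (log2 fold change 1.51, SE 0.46, adjusted p = 0.0106). It did not overlap. Without section 3 the adjusted p of Wipf3 was 0.111 and that of Lgr6 0.195, and without section 2 that of Lgr6 was 0.103. In what follows, list members called against EPL are named with their values already seen. Over all tested genes 5.91% were higher than in EPL and 8.47% lower, which is the background for each list.

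Of 7 tested genes for GABA synthesis, packaging and uptake 3 rose and 2 fell, with a median log2 fold change of -0.02. Those that rose make or package GABA: beside Gad1, Gad2 rose by 0.62 (adjusted p = 0.0481) and Slc32a1, the vesicular GABA transporter, by 0.98 (adjusted p = 0.00116). Slc6a11, the uptake transporter GAT3, was among those that fell, at 584, 577 and 852 CPM in GCL-I against 1128, 1248 and 1301 CPM in EPL (log2 fold change -1.06, SE 0.20, adjusted p = 3.28e-06). Slc6a11 did not overlap between the layers and passed with each section left out. Leaving out section 2 gave an adjusted p of 0.584 for Gad2 and 0.300 for Slc32a1.

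Of 8 tested genes of GABA receptors and the inhibitory synapse 1 rose and 1 fell. The one that rose, Gabra5, a GABA-A receptor subunit, was at 195, 264 and 192 CPM in GCL-I and at 55.0, 76.6 and 71.8 CPM in EPL (log2 fold change 1.43, SE 0.42, adjusted p = 0.00709). The groups did not overlap. Without sections 2 and 3 in turn the adjusted p of Gabra5 was 0.192 and 0.0568.

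Vesicle genes went both ways. Of 23 tested genes 5 rose, Syn1, Syn2, Vamp2 and Napb among them, and Sv2b, Pclo and Sncb fell. Sv2b, a vesicle glycoprotein, was at 58.4, 33.0 and 42.6 CPM in GCL-I and at 289, 153 and 160 CPM in EPL (log2 fold change -2.27, SE 0.54, adjusted p = 0.000624). Pclo, the active-zone scaffold piccolo, was at 19.5, 264 and 234 CPM in GCL-I against 124, 553 and 527 CPM in EPL (log2 fold change -1.39, SE 0.30, adjusted p = 0.000109). Napb was at 895, 1287 and 1129 CPM in GCL-I against 619, 553 and 551 CPM in EPL (log2 fold change 0.81, SE 0.20, adjusted p = 0.000683). Sv2b and Napb did not overlap, and Pclo was low in section 1 in both layers. Glutamate receptor genes gave a like picture: Gria3 and Grin1 rose by 1.07 and 0.82, and Shisa9, an AMPA receptor auxiliary subunit, and Olfm1, which encodes the secreted protein olfactomedin 1, fell by 2.16 and 1.17. Leaving out section 2 gave an adjusted p of 0.162 for Syn1, 0.300 for Vamp2, 0.228 for Napb and 0.339 for Grin1. Without section 3 it was 0.0502 for Syn1, 0.0570 for Syn2, 0.0568 for Gria3, 0.195 for Grin1 and 0.116 for Vamp2, and without section 1 Sncb had 0.0601. Shisa9 was tested without section 1 alone, where it passed.

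Calcium genes that were called were higher in GCL-I: of 25 tested genes for calmodulin, calcium-dependent kinases and phosphatases 9 rose and 0 fell, with a median log2 fold change of 0.54. Atp2b1 and Atp2b2, plasma membrane calcium pumps, rose by 0.83 and 0.70, Camk2b by 0.96, Nrgn, a calmodulin-binding postsynaptic protein, by 0.98, and Calm2 by 0.51. Atp2b1 was at 759, 1402 and 1342 CPM in GCL-I against 440, 701 and 615 CPM in EPL, with no overlap (SE 0.20, adjusted p = 0.000532; 0.0932 without section 2 and 0.0505 without section 3). Of 15 tested transcription factors of bulb interneurons 4 rose, Meis2, Pbx3 and Dlx5 among them, and Nfia, a gliogenic factor, fell, with a median log2 fold change of 0.51. Dlx5, a homeobox gene of forebrain GABA neurons, was at 214, 231 and 192 CPM in GCL-I and at 138, 71.2 and 47.9 CPM in EPL, with no overlap (log2 fold change 1.27, SE 0.43, adjusted p = 0.0262; 0.400 without section 2 and 0.251 without section 3). Without section 2 the adjusted p of Atp2b2, Nrgn, Calm2, Meis2, Pbx3 and Nfia lay between 0.108 and 0.607. Without section 3 that of Atp2b2, Camk2b, Nrgn, Calm2, Pbx3 and Nfia lay between 0.0984 and 0.312, and without section 1 Atp2b2 and Pbx3 both had 0.0504.

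The lower side included mitral and tufted cell genes and astrocyte genes, while most of its 169 genes were in neither list. Of 11 tested mitral and tufted cell genes 9 fell and 0 rose, with a median log2 fold change of -1.57. Slc17a7 was at 234, 148 and 192 CPM in GCL-I against 1802, 443 and 503 CPM in EPL (log2 fold change -2.26, SE 0.27, adjusted p = 7.47e-14). Doc2g, a vesicle gene of tufted and mitral cells, was at 292, 99.0 and 192 CPM in GCL-I against 1389, 640 and 790 CPM in EPL (log2 fold change -2.43, SE 0.27, adjusted p = 1.33e-16). Cck fell by 2.60 and Reln, the extracellular protein reelin, by 1.57. None of these 4 overlapped, and they passed with each section left out. The summed level of the whole list was 2724, 1798 and 2279 CPM in GCL-I against 9726, 4269 and 4789 CPM in EPL, and its member Slc17a6 had 0 counts in GCL-I. Also named by size, Stmn2, Arap2 and Kcna2 fell by 2.87, 2.55 and 2.43, with Stmn2 at 0, 66.0 and 0 CPM in GCL-I and 151, 170 and 208 CPM in EPL. Kcna2 had an adjusted p of 0.0533 without section 2.

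Of 18 tested astrocyte genes 15 fell and 0 rose, with a median log2 fold change of -1.02. Slc1a2, the main glutamate transporter GLT1, was at 331, 1798 and 1491 CPM in GCL-I against 578, 4455 and 3871 CPM in EPL (log2 fold change -1.45, SE 0.18, adjusted p = 3.05e-13). Glul, glutamine synthetase, was at 1051, 1171 and 1512 CPM in GCL-I against 1953, 3153 and 3001 CPM in EPL (log2 fold change -1.29, SE 0.18, adjusted p = 2.43e-11). Slc1a2 was low in section 1 in both layers and overlapped, and Glul did not. The summed level of the list was 11792, 12257 and 13590 CPM in GCL-I against 19369, 24855 and 25315 CPM in EPL, and its member Agt had 0 counts in GCL-I. Of 26 genes of microtubules, neurofilaments and motors 7 fell and 0 rose, led in counts by Map1b (log2 fold change -1.58, adjusted p = 4.43e-14). Whether the layers differed in their number of astrocytes or of mitral and tufted cell processes was not tested. Nor was it tested whether such a difference took part in the changes of other genes.

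**Figure D4:**
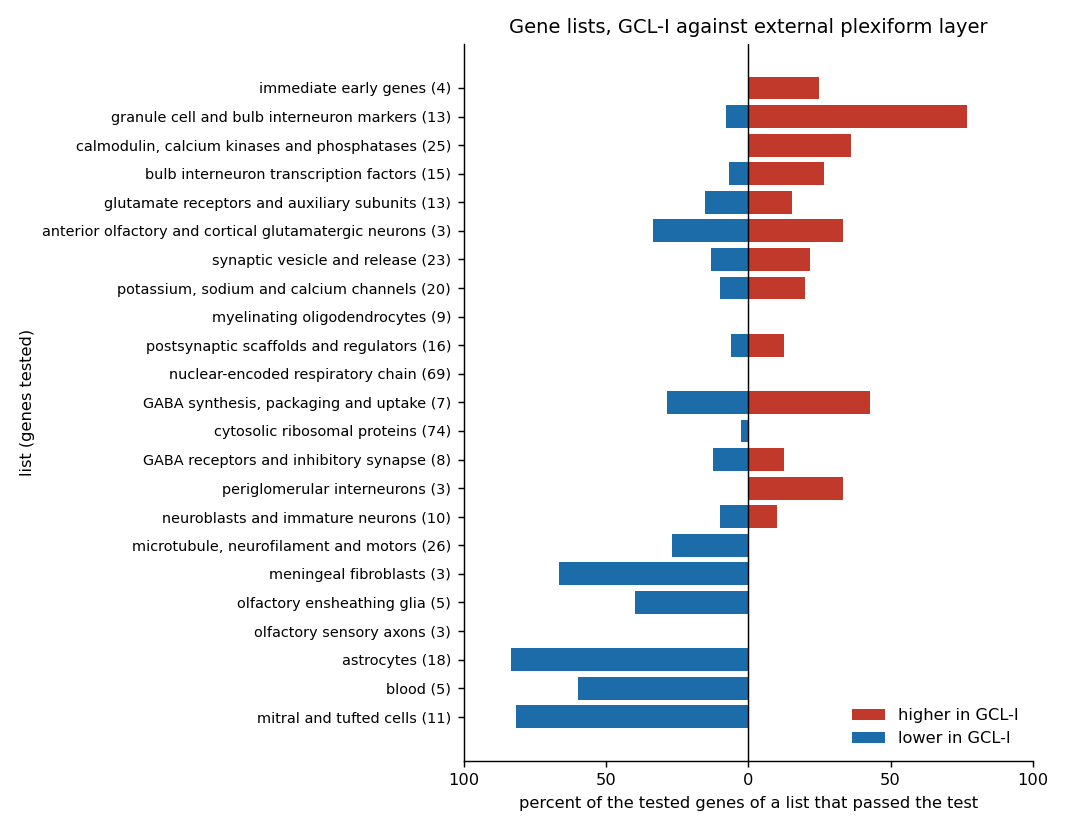
Percent of the tested genes of each list that were called higher (red, to the right) or lower (blue, to the left) in GCL-I against EPL, for lists with at least 3 tested genes and in order of their median log2 fold change. Granule cell markers lie on the higher side, with 10 of 13 called, and astrocyte genes on the lower side, with 15 of 18 called.

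Between the layer and its neighbours no gene was called. In GCL-I against GCL-E, the other granule cell region, 0 of 1996 genes passed (0.0%; edgeR), with 72 at unadjusted p under 0.05 (3.61%) and 0 by DESeq2. The lowest adjusted p was 0.351, for Dnaja2. Gad1 was at 3892, 2738 and 2599 CPM in GCL-I and at 2488, 3017 and 2833 CPM in GCL-E (log2 fold change 0.11, SE 0.20), higher in GCL-I in section 1 alone. Pcp4, Ptk2b and Icam5 had log2 fold changes of 0.33, 0.10 and 0.15, with SEs of 0.23, 0.38 and 0.36. GCL-E held only 10853, 21210 and 24007 counts, and the median SE over the 1996 genes was 0.54, against 0.35 in the comparison with EPL.

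In GCL-I against E, on its deep side, 0 of 1996 genes passed (0.0%; edgeR), with 132 at unadjusted p under 0.05 (6.61%). DESeq2 called 1 gene, Gad1, and a fit of the 2 regions alone called 8, 2 higher and 6 lower. Gad1 was at 3892, 2738 and 2599 CPM in GCL-I and at 2316, 1684 and 1692 CPM in E, with no overlap (log2 fold change 0.68, SE 0.16, adjusted p = 0.0707). Cst3, at the same adjusted p, was at 2530, 1468 and 1491 CPM in GCL-I and at 3622, 2634 and 2446 CPM in E (log2 fold change -0.70, SE 0.18). Mbp had a log2 fold change of -0.52 (adjusted p = 0.426). Pcp4, Ptk2b and Icam5 had 0.38, 0.61 and 0.31, with SEs of 0.17, 0.28 and 0.25. E held many Gad1 and Pcp4 counts of its own: its mean Pcp4 level of 1375 ± 310 CPM exceeded those of the 5 regions outside the granule cell layers and of RMS.

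Within the layer, the deep and outer parts were split midway between GCL-E on one side and E or RMS on the other. Of 426 genes tested 0 passed (0.0%; edgeR), with 18 at unadjusted p under 0.05 (4.23%) and 0 by DESeq2. The lowest adjusted p was 0.666. Gad1 was at 3391, 2709 and 2675 CPM in the deep part and at 4347, 2762 and 2535 CPM in the outer part (log2 fold change, deep minus outer, -0.11, SE 0.15). Pcp4 was at 2084, 1757 and 1502 CPM in the deep part and at 2526, 1471 and 1560 CPM in the outer part (-0.02, SE 0.20). Ptk2b and Icam5 had -0.11 and 0.10, with SEs of 0.36 and 0.32. The median SE over the tested genes was 0.32.

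Distance from the layer gave a finer view, as a description with no test. In the first 20 array positions deep of GCL-I the Gad1 level was 2537, 1873 and 2019 CPM. In the first 20 positions outside it the level was 3373, 2292 and 2303 CPM. Both were below both parts of the layer in each section. The outer bin is not GCL-E alone: it held 71511, 62116 and 60813 spots, against 20743, 19213 and 27266 in all of GCL-E. GCL-E itself had 2488, 3017 and 2833 CPM of Gad1, above the 2738 and 2599 CPM of GCL-I in sections 2 and 3. Apoe had the opposite course, with 2378, 1171 and 1638 CPM in the outer part of the layer, against 3190, 2264 and 2499 CPM in the first 20 positions outside it. Mbp and Cst3 were higher toward the core of the bulb. Between 40 and 60 positions deep of the layer Mbp reached 3431, 2037 and 2899 CPM, against 2043, 1208 and 845 CPM in the deep part of GCL-I. Slc17a7 was low within the layer and deep of it, and reached 1612, 470 and 913 CPM between 20 and 40 positions outside it, against 334, 120 and 195 CPM in its outer part.

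**Figure D5:**
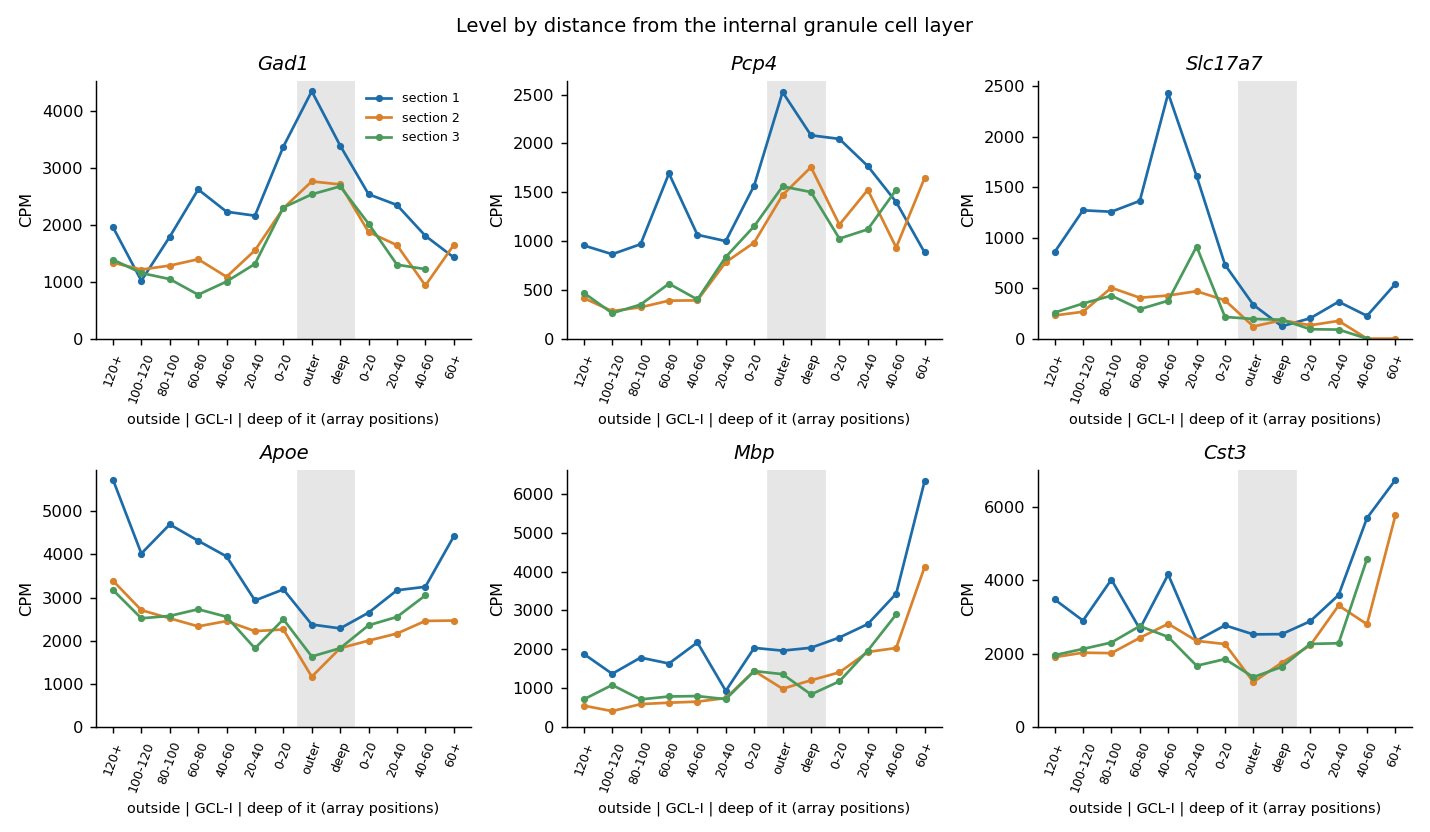
CPM of 6 genes by distance from GCL-I in array positions, from the outer layers on the left through the outer and deep parts of GCL-I (grey) to the core on the right, with 1 line per section and bins under 1000 counts left out. Gad1 and Pcp4 peak in or beside the grey band, Apoe dips there, and Mbp and Cst3 are highest at the right end.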

How the data were processed

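For each section the authors deposited a list of raw counts (whole numbers, by gene and spot) and an annotation of spot positions with region names. Per the submitters' processing notes the build was mm10. The sources used here do not name the aligner or the counter, nor say whether the counts are of unique molecules. The pixel position of a spot linked the files (100% of entries in each section). By spot name 97.1% of the entries of sections 2 and 3 fell in the same region, which was kept as an alternative. Spots of unknown region and counts without a gene name (25, 24 and 32 in GCL-I) stayed out.

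The 27 sums of counts over the spots of a region and section were tested with edgeR 4.0.16 (quasi-likelihood, R 4.3.3). The model held region and section, with TMM scaling, and filterByExpr at a minimum count of 10 left 1996 genes, and 426 for the 2 parts of the layer. P-values were adjusted over all genes of a comparison by Benjamini-Hochberg, at a threshold of 0.05. A positive log2 fold change means higher in GCL-I, or higher in its deep part. Deviations from region means of sums of the same section correlated at 0.405 on average (lowest 0.0583, 108 pairs), so section was kept as a block. The correlation of -0.210 across sections is no separate support, since subtracting means over 3 sections pushes it below that within sections. Fitted fold changes depend on the prior count where a group has no counts, and CPM are therefore given with them. DESeq2 1.42.0, other scalings, no filter, no block, left-out sections, left-out boundary spots, fewer regions and single pairs were alternatives. Tests were checked on simulated counts. Python 3.11.15 with numpy 2.4.6, pandas 2.3.3, scipy 1.17.1 and matplotlib 3.10.9 did the rest.

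The region, the gene lists and the tests were chosen with earlier results of these data known. Named genes were, against the other regions, the 16 higher and 8 lower genes with the largest fold change among those past the threshold, with the same direction in 3 sections and at least 30 counts. For each pair they were the 4 largest each way under like conditions. Of lists, members past the threshold and those with the most counts could be named, and the 4 markers always. Some genes that the rule names are not reported here. Map2k1, the mitochondria-like genes, list members named against EPL, and the descriptions by distance, by tissue piece and without mitochondria-like genes were chosen after their values were seen. Totals of 344260, 650393 and 505305 counts limit the precision.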

Additional observations from a re-analysis of the deposited data

Results flagged for a closer look

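Counts lay on spots that the annotation gives no named region, and these spots entered no comparison: 42 counts in section 1, 5699 in section 2 and 3435 in section 3, on 91, 6424 and 4444 spots. Within GCL-I, 25, 24 and 32 counts of sections 1, 2 and 3 carried no gene name. No control samples exist for either, and each is above the 3 counts that a count of 0 allows.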

How the results depend on the processing

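Against the other regions, where 71 genes were called, the count was 36 with no filter on low counts, 0 with no replicate block (edgeR, 117 at unadjusted p under 0.05), 206 with boundary spots left out, 109 without the rostral migratory system, 225 with the 5 regions of most counts, and between 8 and 74 with a section left out. Against EPL (287) it was 177 with no filter, 2 with no replicate block, 164 with boundary spots left out, and between 105 and 280 with a section left out. Against GCL-E (0) it was 10 with boundary spots left out, where GCL-E kept 107, 232 and 2883 counts, and 0 with a section left out. Against E (0) it was 1 with RLE scaling, 2 with library sizes alone, 1 with no filter, 1 with DESeq2, 1 with boundary spots left out, 8 with only the pair in the fit, 2 without mitochondria-like genes, and between 0 and 1 with a section left out. The block pairs sums of the same section. The comparison of the 2 parts of the layer and that of counts per 100 spots (log2 ratio between 0.12 and 0.30 with a section left out) stayed on the same side of the threshold under each alternative run. With boundary spots left out the median log2 fold change of all genes against the other regions was 0.66, and the sign turned for Cck (0.202), Slc1a3 (0.613), Apod (0.0763), Slc6a11 (0.385) and Mbp (0.475), each still below that median. Mbp was also positive with no filter (0.101), without the rostral migratory system (0.142) and with the 5 regions (0.313), and lay between -0.0852 and 0.0665 with a section left out. Of values that did not pass, with a section left out, Gad1 lay between -0.100 and 0.271 against GCL-E and Icam5 between -0.0670 and 0.707 against E. Between deep and outer parts Gad1 lay between -0.208 and 0.0216, Pcp4 between -0.181 and 0.122, Ptk2b between -0.272 and 0.0282, and Icam5 between -0.195 and 0.395. Pcp4 there had 0.00555 with RLE scaling, 0.0166 with DESeq2 and 0.0252 between the deepest and outermost tertiles. The cause was not tested in any of these cases. Depth limits genes with few counts and the small regions.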
